A study of Rattus norvegicus with 16 samples.

Results

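Genes of the antioxidant defence, 10 in number, were followed in rat lung: Hmox1, the inducible haem oxygenase; the superoxide dismutases Sod1, Sod2 and Sod3; catalase (Cat); the glutathione peroxidases Gpx1, Gpx3, Gpx4 and Gpx8; and the thioredoxin reductase Txnrd1. They were chosen by gene symbol, as 10 of the 14506 genes to which the deposited array table ties at least 1 probe set (a group of short probes summarised to a single value) that carries exactly 1 symbol. Each of the 10 had 1 such probe set. The 16 animals were male Sprague-Dawley rats in 4 groups of 4, and RNA of each animal's right lung was put on 1 Affymetrix array. Rats of the hypoxia with estradiol and fulvestrant group carried a pump under the skin that released 17β-estradiol, an estrogen, at 75 µg/kg/day for 3 weeks, had fulvestrant, an antagonist of the estrogen receptors, injected at 3 mg/kg/day, and spent the last 2 weeks in hypobaric hypoxia at 362 mmHg, which corresponds to 10% oxygen at sea level. Rats of the hypoxia with estradiol group had the same pump and the same hypoxia, hypoxia rats had the hypoxia alone, and normoxia rats served as controls. The labels do not say whether hypoxia and normoxia rats carried pumps without drug, or whether estradiol rats had injections without fulvestrant.

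Superoxide dismutases turn superoxide into hydrogen peroxide, which catalase, the glutathione peroxidases and the peroxiredoxins, fed by thioredoxin and its reductase, break down further. Hmox1 cleaves haem into biliverdin, carbon monoxide and free iron, and is induced by haem, by oxidants and in some cells by hypoxia, with NRF2 as activator and BACH1 as repressor at the antioxidant response elements of its enhancers. In the lung, alveolar macrophages that clear red cells are a known site of Hmox1 expression, and Sod3 is an abundant extracellular enzyme of vessel walls and airways. The series title names estrogen receptors as mediators of the effect of estradiol on gene changes in hypoxic pulmonary hypertension, and the comparisons below give the levels of these 10 genes with and without hypoxia, hormone and antagonist.

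3 stretches upstream of annotated starts are shown, since they belong to a member that rose in hypoxia, to one whose difference missed the threshold and to one with little difference, and since they hold matches to the motifs searched. RefSeq's promoter windows on the build GRCr8 (300 bases, of which 50 lie after the start) were on hand for 7 of the 10 genes, 10 windows in all. Gene starts can be several, and Gpx4 had 3 windows and Txnrd1 had 2. The lines give the part before the start, 5′ to 3′ on the gene's strand, with motif matches in capitals, for Gpx4 (chr7:10303630-10303879, minus strand), Sod2 (chr1:50050169-50050418, minus strand) and Txnrd1 (chr7:22755905-22756154, minus strand).
Gpx4: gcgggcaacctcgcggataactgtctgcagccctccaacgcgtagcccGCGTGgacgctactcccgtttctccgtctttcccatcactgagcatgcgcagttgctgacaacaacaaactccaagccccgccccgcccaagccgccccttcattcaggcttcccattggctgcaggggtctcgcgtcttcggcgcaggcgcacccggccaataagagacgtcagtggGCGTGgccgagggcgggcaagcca
Sod2: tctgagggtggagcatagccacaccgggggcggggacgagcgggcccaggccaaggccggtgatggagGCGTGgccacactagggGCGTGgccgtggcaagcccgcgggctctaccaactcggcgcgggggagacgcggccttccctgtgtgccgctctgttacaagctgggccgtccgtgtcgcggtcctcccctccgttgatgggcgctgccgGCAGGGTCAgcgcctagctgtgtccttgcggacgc
Txnrd1: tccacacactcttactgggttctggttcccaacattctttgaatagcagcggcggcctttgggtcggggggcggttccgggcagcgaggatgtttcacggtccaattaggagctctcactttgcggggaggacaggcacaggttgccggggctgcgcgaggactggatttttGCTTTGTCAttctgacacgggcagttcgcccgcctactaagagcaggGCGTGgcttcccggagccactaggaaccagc

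The capitals mark TGACNNNGC, the core of the antioxidant response element, and GCGTG, a core of the hypoxia response element, each read on both strands. TGACNNNGC lay in the windows of Sod2, at position -35 from the start, and of Txnrd1, at -78, both on the strand opposite to the gene, and in 12.1% of all 33469 rat windows. GCGTG lay in 6 of the 10 windows (Gpx3, Gpx4 in all 3, Sod2 and 1 of the Txnrd1 windows) and in 29.7% of all windows. Windows of Gpx4 overlap in part and share matches, so a site can be counted more than once, and nothing is read from the count beside that share. The other hypoxia response core, ACGTG, lay in the windows of Sod1 and Gpx1 and in 19.3% of all, and the full estrogen response element, GGTCA and TGACC with 3 bases between them, in 0 of the 10 and 0.0269% of all. Such matches describe letters in a window and say nothing of binding.

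Values are the authors' log2 signals, and a difference of log2 values was tested with limma over all 14506 genes with Benjamini-Hochberg adjustment and a threshold of 0.05. Levels of different genes are not compared, since probes differ in brightness. The label of 1 array is in doubt: normoxia replicate 4 is a normoxia rat by its title and a hypoxia rat by its treatment field. It was kept as normoxia, and the calls of members that are lost with it counted as hypoxia are given with their values under that label. Calls of genes in the pathway and marker lists are given with it as normoxia only. With it counted as hypoxia, 40 genes passed in hypoxia against normoxia, where 817 passed with it as normoxia. In hypoxia with estradiol against hypoxia 0 passed, so the list calls of that comparison were lost. Which list genes keep their calls in the comparisons with normoxia was not tested. Heart muscle markers (6 genes measured) averaged 9.34 in normoxia replicate 3 and 10.52 in replicate 4, against 7.43 in both other normoxia arrays and 7.39 to 8.51 in the 12 arrays of the other groups, so normoxia was also tested without replicates 3 and 4, a choice made after seeing the data. The lung marker Sftpc, the surfactant protein of alveolar type 2 cells, had group means within a narrow range, at 13.91 with estradiol and fulvestrant, 13.92 with estradiol, 13.90 in hypoxia and 13.97 in normoxia. Samples were submitted group by group, and any batch tied to that order and the treatment cannot be told apart. In whole lung, a change in the number of cells of a type and a change in RNA per cell cannot be told apart either.

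Hypoxia against normoxia asked what low oxygen alone changed. Hmox1, Gpx4 and Gpx8 rose, and 0 of the 10 genes fell. Across all genes 817 passed (5.63%), 465 of them higher (3.21%). The members were chosen with results of these data known, so nothing is read from the share of them that passed. All 10 differences were above 0, with a median of 0.19, where 58.0% of all genes were above 0 with a median of 0.03. The members' own range ran from 0.03 for Txnrd1 to 0.87 for Hmox1. The 3 calls lay close to the threshold and were lost in many of the alternatives, as given with each gene.

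**Figure D1:**
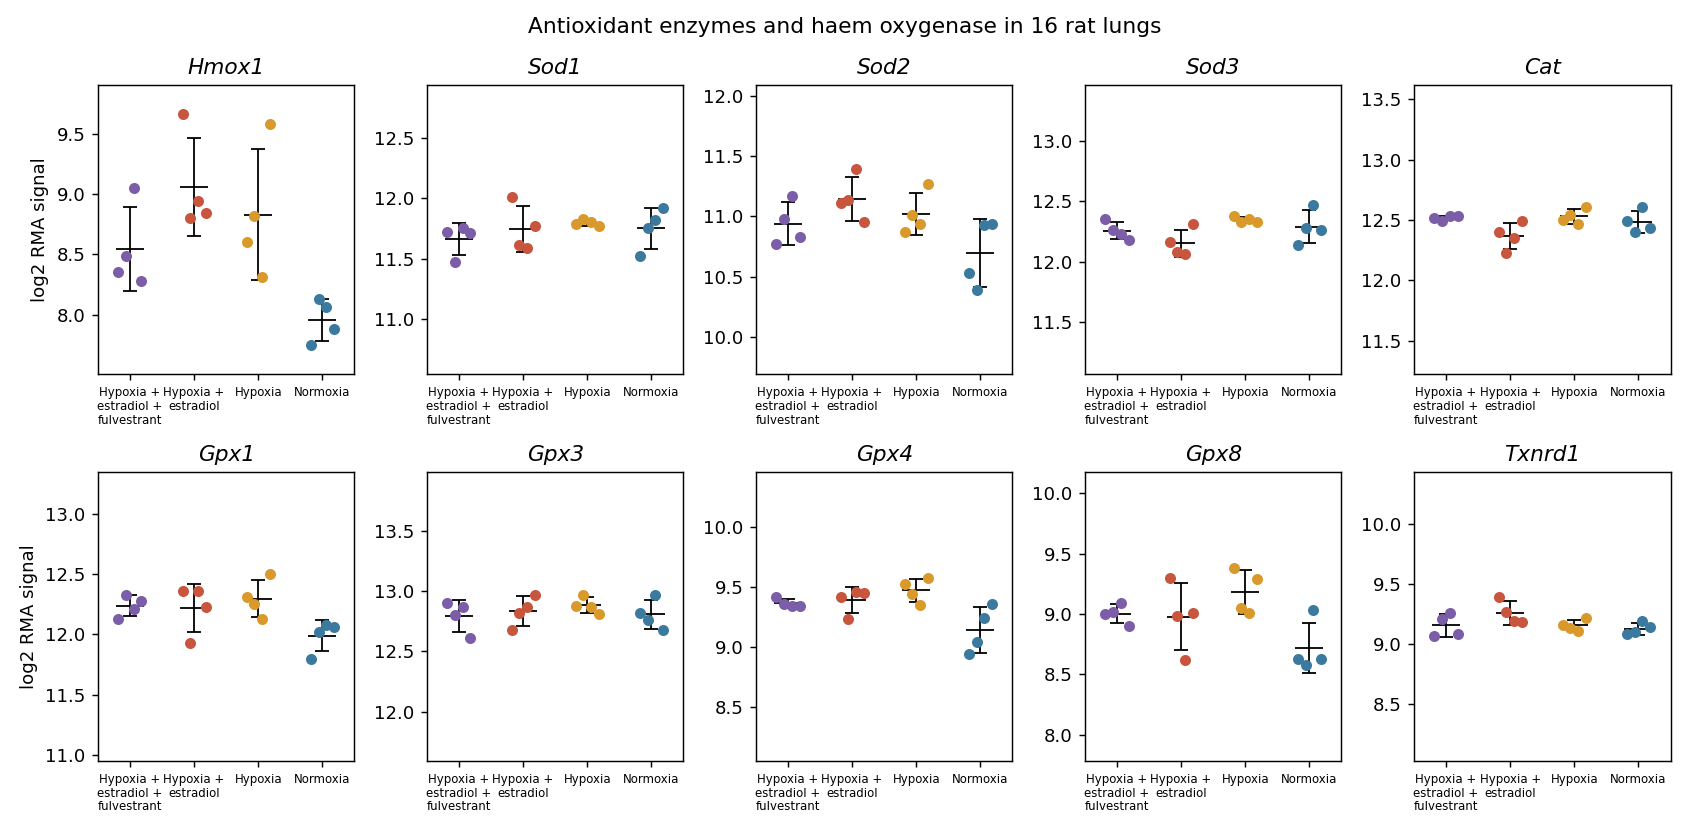
Log2 signal of each of the 10 genes in every array (points), with the group mean and SD (bars), for hypoxia with estradiol and fulvestrant, hypoxia with estradiol, hypoxia and normoxia, n = 4 arrays each; every panel spans the same height in log2 units. The Hmox1 hypoxia arrays (8.31 to 9.58) all lie above the normoxia arrays (7.75 to 8.13), while Txnrd1 and Cat stay within a narrow band.

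Hmox1 had log2 values of 8.60, 8.82, 8.31 and 9.58 in hypoxia lungs, against 7.75, 8.13, 8.06 and 7.88 in normoxia lungs. Every hypoxia array was above every normoxia array, which was true of 6.74% of all genes in this direction. The means were 8.83 ± 0.54 in hypoxia and 7.96 ± 0.17 in normoxia (SD, n = 4 each), a log2 difference of 0.87 (SE 0.24, 95% interval 0.36 to 1.39) or 1.83-fold (limma, adjusted p = 0.0472). The hypoxia arrays were spread more widely than the normoxia arrays, and hypoxia replicate 4 was the highest. The call held in 7 of 18 alternatives, with differences of 0.62 to 1.05 and adjusted p from 0.0202 to 0.3 in limma. Leaving out a single rat ended it in 7 of 8 cases, namely all but hypoxia replicate 3. With normoxia replicate 4 moved to the hypoxia group the difference was 0.66 and did not pass (limma, adjusted p = 0.3), and likewise without normoxia replicates 3 and 4 (0.89; limma, adjusted p = 0.13).

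Among the dismutases, Sod2, the mitochondrial manganese enzyme, had the widest difference. Its log2 values were 10.87, 11.01, 10.94 and 11.27 in hypoxia lungs, against 10.53, 10.39, 10.93 and 10.94 in normoxia lungs. The hypoxia arrays lay at or above the normoxia maximum with 1 exception, replicate 1, so that the groups overlapped, and normoxia replicates 3 and 4 were the high ones of their group. The difference of 0.32 (SE 0.13, 95% interval 0.04 to 0.61) did not pass (limma, adjusted p = 0.184). Without normoxia replicates 3 and 4 it was 0.56 and passed (limma, adjusted p = 0.0312); their part in the result beyond that was not tested. Sod1, the cytosolic copper and zinc enzyme, had 11.79, 11.83, 11.80 and 11.77 in hypoxia lungs, against 11.52, 11.75, 11.82 and 11.92 in normoxia lungs. Sod3 had 12.38, 12.33, 12.35 and 12.33 in hypoxia lungs, against 12.14, 12.28, 12.47 and 12.26 in normoxia lungs. For both, the hypoxia arrays lay inside the normoxia range, with 95% intervals of the difference from -0.16 to 0.26 for Sod1 and from -0.09 to 0.21 for Sod3. Neither passed (limma, adjusted p = 0.84 for Sod1 and 0.681 for Sod3).

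Catalase, the peroxisomal enzyme that splits hydrogen peroxide, had log2 values of 12.50, 12.54, 12.47 and 12.61 in hypoxia lungs, against 12.49, 12.40, 12.61 and 12.43 in normoxia lungs. The groups overlapped almost wholly, with a difference of 0.05 (95% interval -0.08 to 0.18; limma, adjusted p = 0.699).

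Of the glutathione peroxidases, Gpx4 and Gpx8 rose, Gpx1 was higher in every hypoxia array without passing, and Gpx3 differed little. Gpx4, which reduces lipid hydroperoxides in membranes and thereby holds off ferroptosis, had 9.52, 9.44, 9.35 and 9.57 in hypoxia lungs, against 8.94, 9.04, 9.24 and 9.36 in normoxia lungs. The groups met at a single pair of arrays, hypoxia replicate 3 and normoxia replicate 4. The difference was 0.33 (SE 0.08, 95% interval 0.15 to 0.51), or 1.25-fold (limma, adjusted p = 0.0339). It passed in 10 of 18 alternatives, with differences of 0.26 to 0.48 and adjusted p of 0.00452 to 0.12 in limma, the smallest without normoxia replicates 3 and 4. Leaving out normoxia replicate 1 or 2, or hypoxia replicate 1, 2 or 4, ended the call, as did moving normoxia replicate 4 to the hypoxia group (0.37; limma, adjusted p = 0.0506).

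Gpx8, a member of the endoplasmic reticulum, had 9.38, 9.05, 9.01 and 9.29 in hypoxia lungs, against 8.63, 8.58, 9.03 and 8.63 in normoxia lungs. 3 of the normoxia arrays lay well below the hypoxia arrays, and normoxia replicate 3 lay among them. The difference was 0.47 (SE 0.13, 95% interval 0.19 to 0.74), or 1.38-fold (limma, adjusted p = 0.0462). It passed in 9 of 18 alternatives, with differences of 0.33 to 0.58 and adjusted p of 0.0145 to 0.347 in limma, and leaving out any 1 rat other than normoxia replicate 3 or hypoxia replicate 3 ended the call. With normoxia replicate 4 moved to the hypoxia group the difference was 0.33 and did not pass (limma, adjusted p = 0.347). Gpx1, the abundant cytosolic peroxidase, had 12.31, 12.25, 12.13 and 12.50 in hypoxia lungs, against 11.80, 12.02, 12.08 and 12.06 in normoxia lungs. These groups did not overlap, and the difference of 0.31 (SE 0.10, 95% interval 0.09 to 0.52) did not pass (limma, adjusted p = 0.0871) in that fit or in any of 18 alternatives. Gpx3, the secreted peroxidase of plasma, had 12.88, 12.97, 12.87 and 12.81 in hypoxia lungs, against 12.82, 12.76, 12.97 and 12.68 in normoxia lungs, which overlapped (difference 0.08, 95% interval -0.09 to 0.25; limma, adjusted p = 0.646).

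Txnrd1, the cytosolic reductase that keeps thioredoxin in its active form, had 9.16, 9.13, 9.11 and 9.22 in hypoxia lungs, against 9.08, 9.10, 9.19 and 9.14 in normoxia lungs. The arrays overlapped and the difference was 0.03 (95% interval -0.10 to 0.16; limma, adjusted p = 0.822). A difference beyond 0.16 in either direction lies outside that interval.

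**Figure D2:**
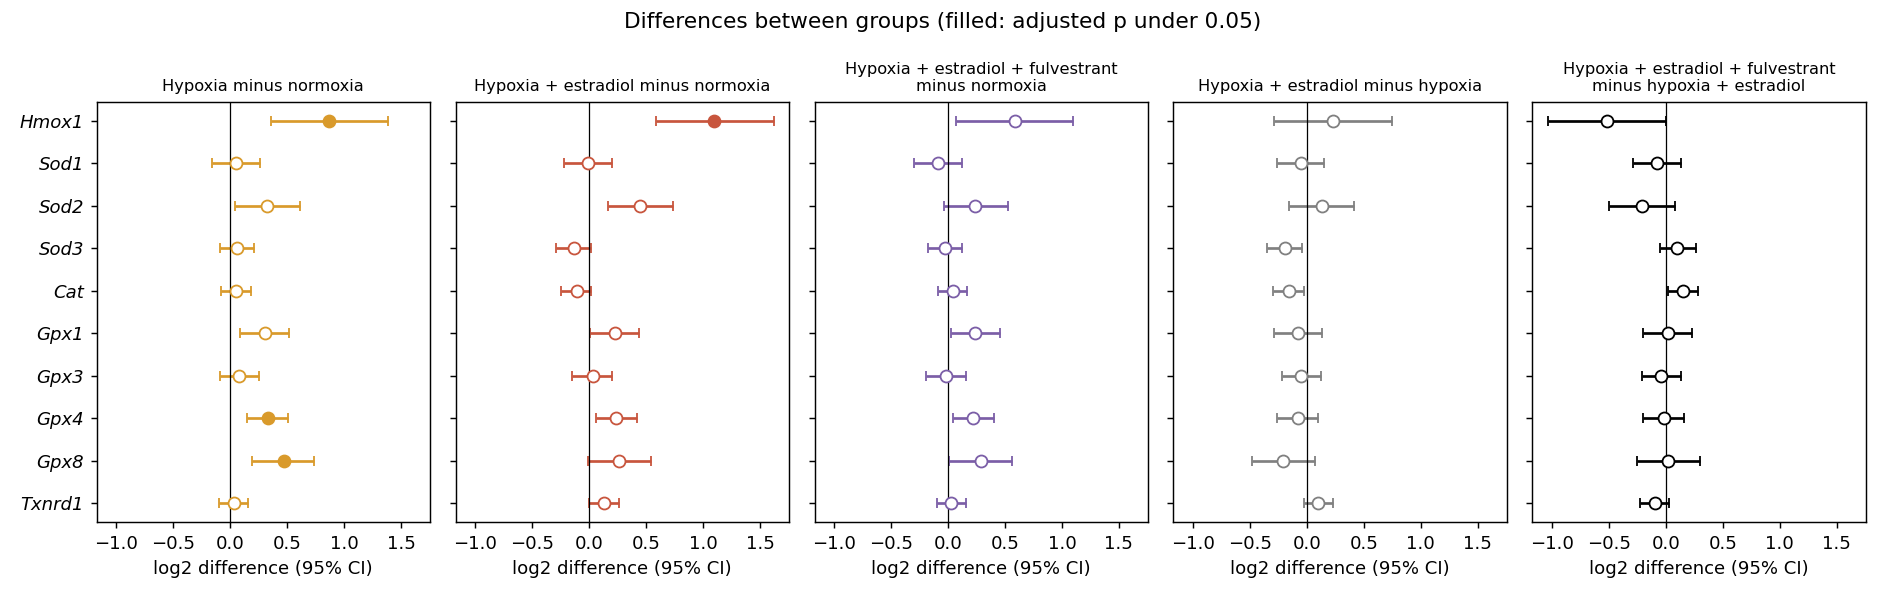
Log2 difference of each of the 10 genes in 5 comparisons of groups, 1 panel each, with 95% intervals from the limma fit; filled points passed the threshold. Only Hmox1, Gpx4 and Gpx8 in hypoxia against normoxia, and Hmox1 in hypoxia with estradiol against normoxia, are filled.

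The number of the 10 genes above their normoxia mean in an array was 8, 7, 8 and 6 in the fulvestrant arrays, 7, 6, 6 and 10 in the estradiol arrays, 10, 10, 8 and 9 in the hypoxia arrays, and 2, 2, 10 and 5 in the normoxia arrays. These counts are a description, with no test. Normoxia replicate 3 was thus above its own group's mean in all 10 genes, by a median of 0.12, which lies inside the range of medians of the hypoxia arrays, 0.10 to 0.28.

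Cell type markers moved beside these genes, and their part in the results was not tested. Of 14 alveolar macrophage markers 5 rose in hypoxia (Chi3l1, Fabp4, Pparg, Ctsk and Gpnmb), and their mean level was 9.51 to 10.07 in hypoxia arrays, against 9.08 to 9.30 in normoxia arrays, with no overlap. Marco, a scavenger receptor that defines these cells, stood at a group mean of 7.12 in hypoxia and 7.02 in normoxia. Within the hypoxia group the highest macrophage mean and the highest Hmox1 value were both in replicate 4. The lowest of both were in replicate 3. In the estradiol group only the lowest of both shared an array, and in the fulvestrant group neither the highest nor the lowest did (given with them). The list for monocytes and interstitial macrophages had 4 of 15 genes higher past the threshold (C1qa, C1qb, C1qc and Folr2), with C1qb at 0.66 (limma, adjusted p = 0.000337) and C1qc at 0.67 (limma, adjusted p = 0.00103). That list's mean was 9.58 to 9.89 in hypoxia arrays and 9.52 to 9.58 in normoxia arrays. Erythrocyte markers (10 measured) had a mean level of 7.53 to 8.95 in hypoxia arrays and 7.45 to 7.74 in normoxia arrays. Of the 10, 9 were above 0, with a list median of 0.86, and 1, Hemgn, passed the threshold (1.27, limma, adjusted p = 0.0431). Hypoxia replicate 3, at -0.05 from the normoxia mean of that list, was the array without such a difference and also the one with the lowest Hmox1 of its group. The highest erythrocyte mean of the group was in replicate 1 (8.95), where Hmox1 was 8.60, below its values in replicates 2 and 4. Smooth muscle markers rose in 4 of 11 (Cnn1, Des, Smtn and Tpm2), and fibroblast markers in 1 of 10 (Fn1). Of the other lists, 1 of 16 neutrophil markers rose (Lcn2), and 1 of 9 alveolar type 1 markers (Hopx) and 1 of 9 lung endothelium markers (Tek) fell. Most neutrophil markers went the other way from Lcn2, with 12 of 16 below 0 and a list median of -0.53. The neutrophil list mean lay at 7.41 to 8.05 in hypoxia arrays and at 7.82 to 8.37 in normoxia arrays.

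**Figure D3:**
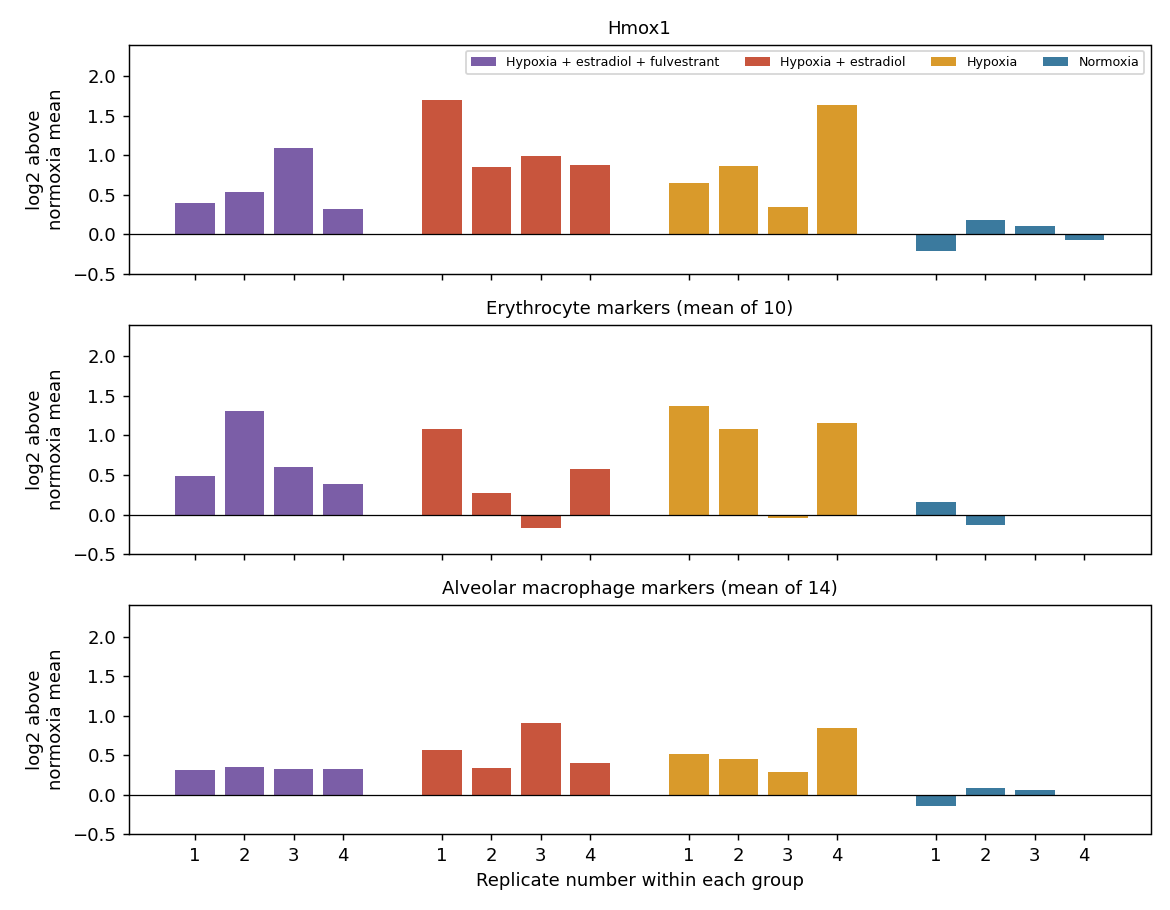
Difference from the normoxia mean, in log2 units, for Hmox1, for the mean of the erythrocyte markers and for the mean of the alveolar macrophage markers (bars, 1 per array, coloured by group). In hypoxia replicate 3 Hmox1 is at its lowest for the group (8.31 as a level) and the erythrocyte markers lie at -0.05. In hypoxia replicate 4 Hmox1 (9.58) and the macrophage markers (0.85) are highest within that group. The erythrocyte markers are highest for that group in hypoxia replicate 1 (1.37), where Hmox1 is 8.60 as a level. In the estradiol group the highest Hmox1 (replicate 1) and the highest macrophage markers (0.91, replicate 3) fall in different arrays. The lowest of both in that group fall in replicate 2 (8.80 as a level for Hmox1, 0.34 for the macrophage markers).

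Hypoxia with estradiol against hypoxia asked what the hormone changed under low oxygen. None of the 10 genes passed, with adjusted p of 0.21 or more in limma, and 2 had an unadjusted p under 0.05 (0.0156 for Sod3 and 0.0173 for Cat). Across all genes 112 passed (0.772%) and 2335 had an unadjusted p under 0.05 (16.1%), and 0 genes passed with normoxia replicate 4 moved to the hypoxia group. Sod3 had 12.16, 12.08, 12.06 and 12.31 with estradiol, against 12.38, 12.33, 12.35 and 12.33 in hypoxia alone. All 4 estradiol arrays were below all 4 hypoxia arrays, as were those of 3.46% of all genes, with a difference of -0.19 (SE 0.07, 95% interval -0.35 to -0.04; limma, adjusted p = 0.21). Cat had 12.40, 12.23, 12.35 and 12.49 with estradiol, against 12.50, 12.54, 12.47 and 12.61 in hypoxia alone, which overlapped at the highest estradiol array (difference -0.16, 95% interval -0.30 to -0.03; limma, adjusted p = 0.216).

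Hmox1 had 9.66, 8.80, 8.94 and 8.84 with estradiol, against 8.60, 8.82, 8.31 and 9.58 in hypoxia alone. Each group held 1 array far above its other 3, estradiol replicate 1 and hypoxia replicate 4, and the ranges overlapped. The difference of 0.23 had a 95% interval of -0.29 to 0.75 (limma, adjusted p = 0.688), so these arrays leave room for a moderate difference in either direction. Gpx8 had 9.30, 8.98, 8.62 and 9.01 with estradiol, against 9.38, 9.05, 9.01 and 9.29 in hypoxia alone, a difference of -0.21 (limma, adjusted p = 0.46). The median difference of the 10 genes was -0.07, and that of all genes was -0.02. Neutrophil markers moved in this comparison: 8 of 16 rose, and the list's mean lay at 8.43 to 9.49 with estradiol and at 7.41 to 8.05 in hypoxia alone. Of 14 alveolar macrophage markers 1 rose (Mrc1, 0.49, limma, adjusted p = 0.0362). Of 15 monocyte and interstitial macrophage markers 1 fell (Cx3cr1, -0.74, limma, adjusted p = 0.0295), as did 1 of 9 lung endothelium markers (Car4, -0.33, limma, adjusted p = 0.0485). All 10 erythrocyte markers lay below 0, with a median of -0.47 and 0 past the threshold. The part of these cells in the values of the 10 genes was not tested.

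Against normoxia, the estradiol group had 1 member past the threshold, Hmox1. Across all genes 756 passed (5.21%), 417 of them higher (2.87%). Hmox1 averaged 9.06 ± 0.40 with estradiol and 7.96 ± 0.17 in normoxia (SD, n = 4 each), a difference of 1.10 (SE 0.24, 95% interval 0.59 to 1.62) or 2.15-fold (limma, adjusted p = 0.0163), with no overlap of the arrays. The call held in 16 of 19 alternatives, with differences of 0.91 to 1.29. It was lost without normoxia replicate 1, with normoxia replicate 4 moved to the hypoxia group (difference 1.08, adjusted p = 0.0741 in limma), and without normoxia replicates 3 and 4 (difference 1.12, adjusted p = 0.0682 in limma), and the adjusted p over all alternatives ran from 0.0135 to 0.0741. It held without estradiol replicates 2 and 3, whose neutrophil markers were the highest of their group. Sod2 had 11.11, 11.14, 11.39 and 10.95 with estradiol, all above the normoxia maximum of 10.94, as was the case upward for 5.03% of all genes, with a difference of 0.45 (SE 0.13, 95% interval 0.17 to 0.74; limma, adjusted p = 0.0668). It passed in 4 of 19 alternatives, those without normoxia replicate 3, without replicate 4, without both, and without estradiol replicate 4, so its call turned on single arrays. Gpx4 had 9.42, 9.23, 9.46 and 9.45 with estradiol (difference 0.24; limma, adjusted p = 0.12), which passed without normoxia replicate 4 (0.32; limma, adjusted p = 0.0418) and without normoxia replicates 3 and 4 (0.40; limma, adjusted p = 0.0167). The normoxia arrays are shared with the hypoxia comparison, so the higher values in both rest in part on the same 4 rats.

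Of the 14 alveolar macrophage markers 6 rose with estradiol against normoxia (Mrc1, Chi3l1, Pparg, Siglec1, Ctsk and Gpnmb), at a list mean of 9.55 to 10.13 with estradiol and 9.08 to 9.30 in normoxia. The highest macrophage mean of the group was in replicate 3 (10.13), where Hmox1 was 8.94. The highest Hmox1 was in replicate 1 (9.66), where the macrophage mean was 9.78. The lowest macrophage mean (9.55) and the lowest Hmox1 (8.80) of the group were both in replicate 2. Of the other lists in this comparison, 4 of 11 smooth muscle markers rose, 4 of 9 lung endothelium markers fell, 3 of 16 neutrophil markers rose, 1 of 9 alveolar type 1 markers (Rtkn2) fell, and of 15 monocyte and interstitial macrophage markers 1 rose and 3 fell. Erythrocyte markers ranged from 7.41 to 8.66 with estradiol. In estradiol replicate 3 they lay at -0.17 from the normoxia mean while Hmox1 stood at 8.94, above all normoxia arrays. In estradiol replicate 1, which had the highest Hmox1 value of the 16 arrays (9.66), they lay at 1.08. The part of these cells in the Hmox1 result was not tested.

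Adding fulvestrant to estradiol asked which estradiol effects needed the receptors it blocks. None of the 10 genes passed (smallest adjusted p 0.26, limma), and across all genes 7 passed (0.0483%) with 2142 at an unadjusted p under 0.05. Hmox1 had 8.35, 8.49, 9.05 and 8.28 with fulvestrant added, against 9.66, 8.80, 8.94 and 8.84 with estradiol alone. Each of the 4 fulvestrant arrays was below the estradiol mean of 9.06, yet replicate 3 lay inside the estradiol range. The difference of -0.52 (SE 0.24; unadjusted p = 0.0498) did not pass after adjustment (limma, adjusted p = 0.338). Cat had 12.52, 12.49, 12.53 and 12.53 with fulvestrant added, in a tight band, against 12.40, 12.23, 12.35 and 12.49 with estradiol alone. The lowest fulvestrant array lay just above the highest estradiol array, with a difference of 0.15 (SE 0.06, 95% interval 0.02 to 0.28; limma, adjusted p = 0.26). Arrays of the groups lay apart in this direction for 4.78% of all genes. Sod2 had 10.77, 10.98, 11.17 and 10.83 with fulvestrant added, a difference of -0.21 from estradiol alone (limma, adjusted p = 0.507). Of 14 alveolar macrophage markers 1 fell (Mrc1, -0.57, limma, adjusted p = 0.0403), and of 15 monocyte and interstitial macrophage markers 1 rose (Cx3cr1, 0.72, limma, adjusted p = 0.0403). Of 16 neutrophil markers 0 passed, but 15 were below 0, with a median of -0.76. Their list mean was 8.09 to 8.48 with fulvestrant added and 8.43 to 9.49 with estradiol alone. All 10 erythrocyte markers lay above 0, with a median of 0.27 and 0 past the threshold. The part of these cells in the values of the 10 genes was not tested here either.

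Against normoxia, the fulvestrant group had 0 of the 10 genes past the threshold, with 430 of all genes past it (2.96%) and 2213 at an unadjusted p under 0.05. Hmox1 was above every normoxia array in all 4 fulvestrant arrays (means 8.54 ± 0.35 with fulvestrant and 7.96 ± 0.17 in normoxia, SD, n = 4 each), a difference of 0.59 with a 95% interval of 0.07 to 1.10 (limma, adjusted p = 0.251). Gpx1, at 12.13, 12.33, 12.21 and 12.28 with fulvestrant, was above every normoxia array as well, by 0.24 in the means (limma, adjusted p = 0.245). Arrays lay apart upward in 7.13% of all genes. Gpx4 had 9.42, 9.36, 9.34 and 9.34 with fulvestrant (difference 0.22; limma, adjusted p = 0.212), and without normoxia replicates 3 and 4 its difference of 0.38 passed (limma, adjusted p = 0.0312). Gpx8 had 9.00, 9.02, 9.09 and 8.90 with fulvestrant (difference 0.29; limma, adjusted p = 0.302). Macrophage markers had a list mean of 9.53 to 9.56 in the fulvestrant arrays, above the normoxia range, and 1 of 14 (Pparg) rose. That mean was nearly flat over the 4 arrays, while Hmox1 ran from 8.28 to 9.05 in them. Erythrocyte markers were highest in fulvestrant replicate 2 (8.89), where Hmox1 was 8.49. They stood at 8.18 in replicate 3, where Hmox1 was highest (9.05). Smooth muscle markers rose in 7 of 11 (Acta2, Cnn1, Tagln, Des, Smtn, Actg2 and Tpm2), with a list mean of 11.20 to 11.60 in fulvestrant arrays and 10.59 to 10.94 in normoxia arrays. Of 15 monocyte and interstitial macrophage markers 2 rose (C1qb and C1qc), and 1 of 9 alveolar type 1 markers (Rtkn2) fell. Their part in the values of the 10 genes was not tested.

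The fulvestrant group against hypoxia alone had 0 genes past the threshold among all 14506 in limma (0.0%), with 1009 at an unadjusted p under 0.05 and 2 past it in a fit of these 2 groups alone. All 10 members had differences below 0 (Txnrd1 turned to 0.01 after renewed quantile normalization), down to -0.29 for Hmox1 and with a median of -0.09, where 43.3% of all genes were above 0 with a median of -0.02, and the members' smallest adjusted p was 0.837 (limma). Sod1 had 11.72, 11.47, 11.75 and 11.71 with fulvestrant, against 11.79, 11.83, 11.80 and 11.77 in hypoxia alone, so its arrays lay apart downward, as did those of 2.74% of all genes.

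When the 4 group means of a gene were put in order, estradiol was highest for Hmox1 (9.06), followed by hypoxia (8.83), fulvestrant (8.54) and normoxia (7.96). Sod2 had the same order, with 11.15 for estradiol, 11.02 for hypoxia, 10.94 for fulvestrant and 10.70 for normoxia. Gpx1, Gpx4 and Gpx8 were highest in hypoxia alone (12.30, 9.47 and 9.19) and lowest in normoxia (11.99, 9.15 and 8.72). For all 10 genes, 0 pairs of neighbours in such an order passed the test of their difference in limma. Neighbours have smaller gaps than groups further apart in the order, so this says little, and the calls given above are all between groups that are not neighbours.

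Other genes of these pathways were read from 8 lists, which hold 141 genes, 129 of them measured and 120 of those outside the 10. In hypoxia against normoxia 6.2% of the 129 passed, the 3 members among them, where 5.63% of all genes did, and the median difference of the 129 was 0.05. Members and lists were chosen with results of these data known, so nothing is read from such shares, here or in the comparisons below. Of the 120 genes outside the members 3 rose and 2 fell. Beside the 3 members, Cp (ceruloplasmin, the ferroxidase that helps iron leave cells), Nos3 (the endothelial nitric oxide synthase) and Dio3 (the deiodinase that inactivates thyroid hormone) rose, while Bach2, a repressor related to BACH1, and Selenop, the selenium transport protein, fell. Nos3 averaged 9.53 ± 0.14 in hypoxia and 8.94 ± 0.06 in normoxia (SD, n = 4 each), a difference of 0.59 (SE 0.08; limma, adjusted p = 0.00033). Cp averaged 11.74 ± 0.05 in hypoxia and 11.19 ± 0.22 in normoxia, a difference of 0.55 (limma, adjusted p = 0.00497). Dio3 averaged 6.57 in hypoxia and 6.19 in normoxia, a difference of 0.38 (limma, adjusted p = 0.0138). Both means lay below 6.77, the 25th percentile of gene means, so Dio3 was a dim gene. Bach2 stood at -0.47 (limma, adjusted p = 0.0322) and Selenop at -0.25 (limma, adjusted p = 0.0463). Within the lists, 2 of 8 glutathione peroxidases rose (median 0.22), and both, Gpx4 and Gpx8, are members. The peroxidases outside the members stood at -0.28 (Gpx2), 0.12 (Gpx5), 0.10 (Gpx6) and 0.32 (Gpx7), and none of these passed. Of 23 haem and iron genes 2 rose, the member Hmox1 and Cp (median 0.18, 19 of 23 above 0). Past the threshold were 0 of 20 peroxiredoxins, thioredoxins and glutaredoxins and 0 of 13 glutathione genes. Of the 29 genes of the NRF2 pathway, Hmox1 rose and Bach2 fell, with a list median of 0.02. Nqo1, a standard NRF2 target, stood at -0.26 (limma, adjusted p = 0.21), and Hmox2, the constitutive haem oxygenase, at 0.12 (limma, adjusted p = 0.417). Both were picked after their values were seen, and the NRF2 list had 15 genes above 0 and 14 below.

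In hypoxia with estradiol against hypoxia, with fulvestrant against estradiol, and with fulvestrant against hypoxia, 0 of the 129 genes passed in limma. Hypoxia with estradiol against normoxia had 10 past the threshold outside the 10 members. With the member Hmox1 included, 8.53% of all 129 passed, against 5.21% of all genes, and again nothing is read from that share. Nos2 (the inducible nitric oxide synthase), Slc7a11 (the cystine importer that feeds glutathione synthesis), Ncf1 (a subunit of the phagocyte NADPH oxidase), Mafk (a small Maf partner of NRF2) and Nos3 rose, and Gsta3, Maob, Sesn3, Pstk and Selenop fell. Nos2 averaged 8.64 ± 0.80 with estradiol and 7.29 ± 0.20 in normoxia (SD, n = 4 each; difference 1.35, limma, adjusted p = 0.00913), and the estradiol arrays ranged from 7.94 to 9.74. Slc7a11 averaged 6.90 ± 0.52 with estradiol and 6.16 ± 0.05 in normoxia (difference 0.74; limma, adjusted p = 0.0408). Ncf1 differed by 0.63 (limma, adjusted p = 0.0312) and Mafk by 0.42 (limma, adjusted p = 0.0399). Of those that fell, Gsta3 stood at -0.59 (limma, adjusted p = 0.0265), Maob at -0.54 (limma, adjusted p = 0.014), Sesn3 at -0.29 (limma, adjusted p = 0.0119) and Pstk at -0.27 (limma, adjusted p = 0.0267). The Gsta3 mean with estradiol (6.17) and the Slc7a11 mean in normoxia (6.16) were dim, below 6.77, the 25th percentile of gene means. With fulvestrant against normoxia, Selenom (0.59; limma, adjusted p = 0.0381) and Nos3 (0.34; limma, adjusted p = 0.0263) rose and Nqo1 fell (-0.47; limma, adjusted p = 0.0379), in all 2.33% of the 129, against 2.96% of all genes.

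**Figure D4:**
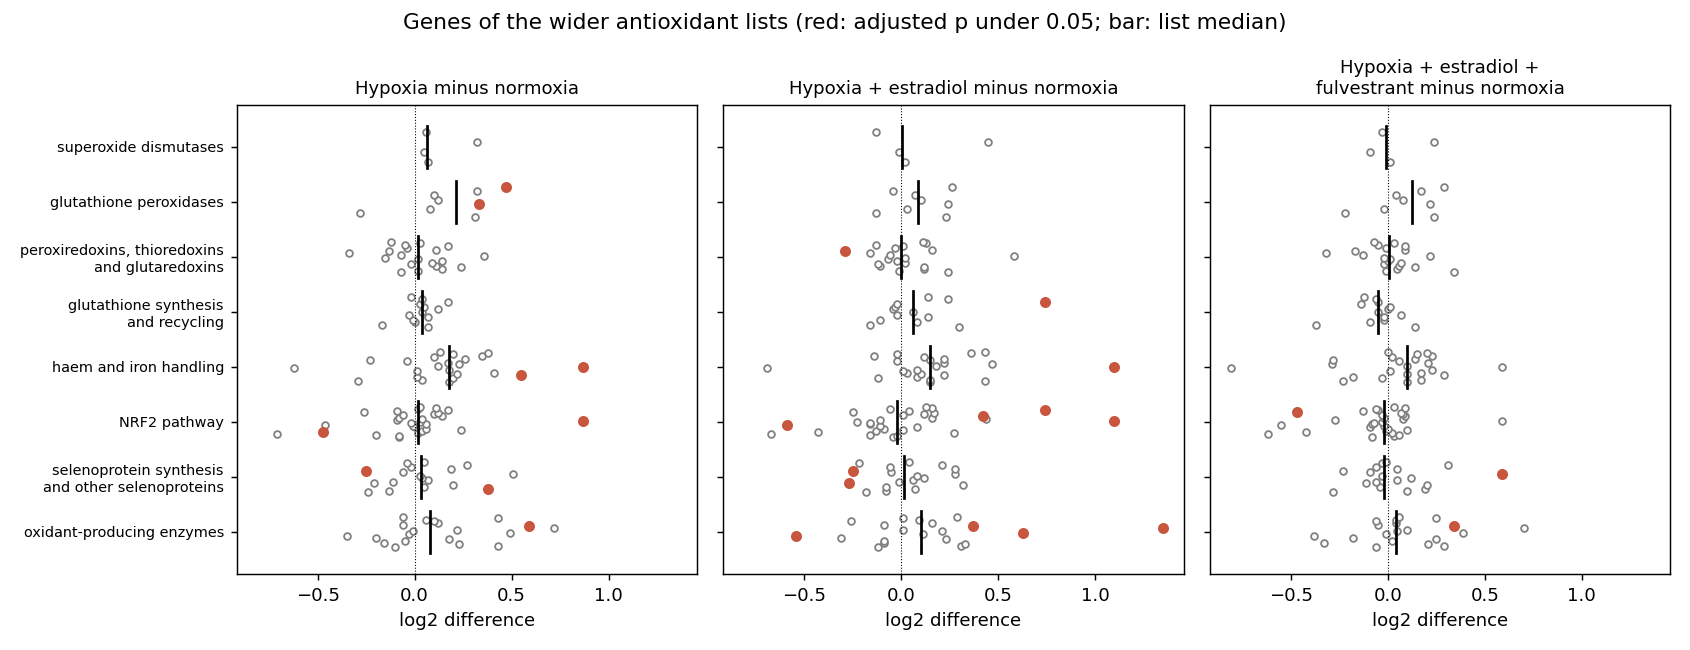
Log2 difference of each measured gene of the 8 pathway lists in the hypoxia, estradiol and fulvestrant groups, each minus normoxia (3 panels); points are genes, red where the threshold was passed, bars are list medians and the dotted line is 0. In hypoxia minus normoxia most list medians lie near 0, and those of the glutathione peroxidases (median 0.22) and of the haem and iron genes (median 0.18) lie higher. Both lists include members, which were chosen with results of these data known.

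For the 3 members that rose, the genes with the most similar pattern were found by the root mean square difference of log2 values over the 16 arrays, each gene first centred on its own mean. For Hmox1, which varied by 0.53 around its mean by the same measure, these were Itih4 (0.25), Arg1 (0.285), Ctsk (0.287), Hebp1 (0.293) and Cfi (0.297). Ctsk is also among the alveolar macrophage markers above. All 5 were higher in hypoxia than in normoxia, by 0.66 for Arg1 to 0.99 for Itih4. That follows from how they were picked, for likeness to Hmox1 over the same 16 arrays, and is no separate result. For Gpx4, which varied by 0.16, they were Tmem160 (0.0744), Ppp1r14b (0.0764), Arf5 (0.0801), Cd302 (0.0815) and Ndufb7 (0.0823). For Gpx8, which varied by 0.24, they were Sv2a (0.11), Fkbp10 (0.114), Minpp1 (0.124), Eva1a (0.127) and Egflam (0.128). The measure favours genes of small spread where the member's own spread is small, and no test was made of it.

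**Figure D5:**
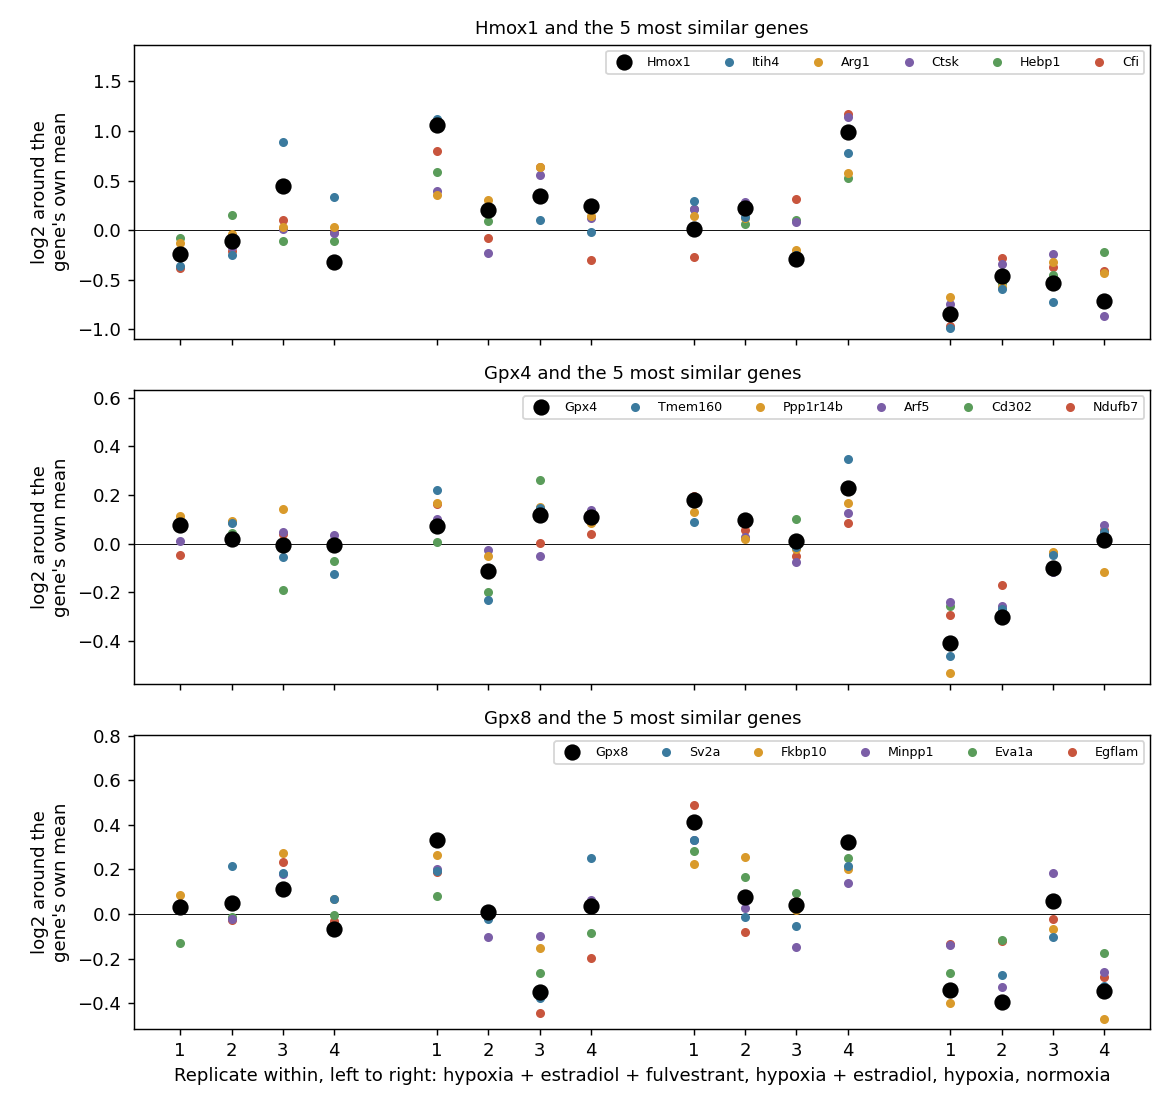
Log2 values around each gene's own mean over the 16 arrays for Hmox1, Gpx4 and Gpx8 (large symbols) and the 5 genes with the smallest root mean square difference from each (small symbols), by group. For Hmox1 the 5 genes stay within 0.25 to 0.297 of it by that measure, against a spread of Hmox1 itself of 0.53.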

How the data were processed

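The authors deposited log2 values per probe set, made with RMA and Partek per the submitters' processing notes; versions, settings, chip annotation and genome build are not given in the sources used here. RMA corrects background, aligns the arrays' distributions and summarises probes, so a change common to nearly all genes is hidden and small differences of dim probe sets are compressed. Per the labels, vessels were flushed with saline before the lung was frozen. The 16 array medians lay between 7.69 and 7.77, no value was missing, and arrays have no count depth: 4 per group set the precision.

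Of 29214 probe sets, 15310 carried 1 gene symbol in GEO's platform annotation, 323 several and 13581 none. Where a gene had more than 1 probe set (527 genes), the brightest on average was kept, which left 14506 genes (14480 matched a RefSeq gene ID). Groups came from titles; replicates are rats, and their numbers follow the order of submission.

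Differences of log2 values were fitted with limma 3.58.1 in R 4.3.3: 4 group means over 16 arrays, empirical Bayes moderation, Benjamini-Hochberg adjustment over all genes, threshold 0.05, with no filter on dim genes. Intervals are 95%. The fit was checked on simulated data. The members and lists were chosen with earlier results of these data known. Named are all members, up to 4 passing genes with the largest change per pathway list and comparison, and the 5 most similar genes of each member that passed a main comparison. List genes that did not pass (in hypoxia Nqo1, Hmox2 and the peroxidases outside the members) were named after their values were seen. Alternatives were median centring, renewed quantile normalization, leaving out the dimmest genes (those below the 25th percentile of the mean), averaged probe sets, all probe sets, array weights, an intensity trend, the compared groups alone, the other label of normoxia replicate 4, leaving out each rat, leaving out estradiol replicates 2 and 3, and, added after seeing the data, leaving out normoxia replicates 3 and 4. Promoter windows are RefSeq's on GRCr8.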

Additional observations from a re-analysis of the deposited data

Results flagged for a closer look

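Single arrays stood far from the other 3 of their group in 3 of the 40 sets of 4 arrays (10 genes in 4 groups), by the gap to the nearest array against the whole range; chance flags about 1 in 20 such sets. Hmox1 was 9.66 in estradiol replicate 1, where the median of the other 3 estradiol arrays was 8.84. Sod1 was 11.47 in replicate 2 of hypoxia with estradiol and fulvestrant, where the median of the other 3 was 11.72. Gpx8 was 9.03 in normoxia replicate 3, where the median of the other 3 normoxia arrays was 8.63, and that array was also above the normoxia mean for all 10 genes.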

How the results depend on the processing

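Over all alternatives 988 of 1070 differences of single members kept their direction and their side of the threshold, 31 lost a call, 8 gained one and 43 changed sign; those that changed sign were at most 0.09 in size, with no call, to begin with. The cause of these changes was not tested. No paired analysis was possible because replicate numbers only follow the order of submission. In hypoxia against normoxia the count of genes past the threshold was 40 with normoxia replicate 4 counted as hypoxia and 428 to 986 without single rats, and the count of the 10 members past it was 0 with all probe sets, with the 2 groups alone and with that array as hypoxia, and 0 to 3 without single rats (0 without normoxia replicate 1 or 2 or hypoxia replicate 1, 2 or 4). In hypoxia with estradiol against hypoxia the gene count was 4 with all probe sets, 5 with the 2 groups alone, 4 with array weights, 0 with normoxia replicate 4 as hypoxia, 0 without estradiol replicates 2 and 3, and 3 to 355 without single rats. With fulvestrant against estradiol it was 21 after median centring, 33 after quantile normalization, 28 without dim genes, 1 with all probe sets, 0 with the 2 groups alone, 34 with an intensity trend, 0 without estradiol replicates 2 and 3, and 0 to 331 without single rats. In hypoxia with estradiol against normoxia it was 216 with the 2 groups alone, 351 with normoxia replicate 4 as hypoxia, 325 without estradiol replicates 2 and 3, and 384 to 887 without single rats, and the member count was 0 with normoxia replicate 4 as hypoxia, 2 without normoxia replicates 3 and 4, and 0 to 3 without single rats. With fulvestrant against normoxia the gene count was 786 with array weights, 100 with normoxia replicate 4 as hypoxia, 280 without normoxia replicates 3 and 4 (1 member) and 238 to 374 without single rats. With fulvestrant against hypoxia it was 2 with the 2 groups alone and 2 with array weights.

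Of the differences that changed sign, with normoxia replicate 4 as hypoxia Gpx3 was -0.01 in hypoxia against normoxia and -0.02 with estradiol against normoxia, Sod1 was 0.05 with estradiol against normoxia, and with fulvestrant against hypoxia Cat was 0.01 and Txnrd1 0.0018. Without estradiol replicates 2 and 3 Sod1 was 0.09 against hypoxia and 0.14 against normoxia, and with fulvestrant against estradiol Gpx1 was -0.06 and Gpx8 -0.15. Without normoxia replicates 3 and 4 Sod1 was 0.11 with estradiol, and with fulvestrant Sod1 was 0.03, Sod3 0.05 and Gpx3 0.0039. Array weights gave Sod1 0.01 with estradiol against normoxia and Txnrd1 0.01 with fulvestrant against hypoxia, where renewed quantile normalization also gave Txnrd1 0.01. Leaving out single rats gave -0.03 to 0.10 for Sod1 in hypoxia against normoxia; -0.14 to 0.02 for Gpx1 and -0.10 to 0.00058 for Gpx3 with estradiol against hypoxia; and -0.10 to 0.05 for Sod1 and -0.02 to 0.08 for Gpx3 with estradiol against normoxia. With fulvestrant against estradiol it gave -0.13 to 0.01 for Sod1, -0.08 to 0.07 for Gpx1, -0.09 to 0.02 for Gpx3 and -0.09 to 0.13 for Gpx8. With fulvestrant against normoxia it gave -0.08 to 0.03 for Sod3, -0.06 to 0.05 for Gpx3 and -0.0045 to 0.06 for Txnrd1. With fulvestrant against hypoxia it gave -0.16 to 7.5e-05 for Sod2, -0.03 to 0.01 for Cat, -0.12 to 0.0041 for Gpx1 and -0.04 to 0.03 for Txnrd1.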
